A study of Arabidopsis thaliana with 12 samples.

Results

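The plastid genome of Arabidopsis is annotated in the deposited counts with 133 genes, those whose identifier starts with ATCG, of 33602 genes in all. Of these 133 members, 116 had at least 10 counts summed over the 12 libraries and are described here. A further 9 members had 1 to 9 counts and 8 had no count in any library. At the lower edge, ATCG00510 had 11 summed counts and ATCG00960 and ATCG01170 had 10 each, while ATCG01030, just outside, had 7. The low-count filter of the test kept 89 members, and the remaining 27 of the 116 were too low to be tested. The identifiers are not paired with gene names in the deposited tables. The reference's notes on nuclear genes of similar sequence name 6 of them, and the others are given by identifier, with no role assigned.

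Plastids keep a small genome of cyanobacterial origin that encodes subunits of the photosystems, the cytochrome complex, ATP synthase and Rubisco, with part of the plastid's own ribosome, transfer RNAs and RNA polymerase. It is transcribed by a plastid-encoded bacterial-type polymerase, which needs nuclear-encoded sigma factors and associated proteins, and by nuclear-encoded phage-type polymerases. Nuclear-encoded RNA-binding proteins and nucleases then process, edit and stabilise the transcripts. In plastids a poly(A) tail marks RNA for breakdown, unlike the tail of nuclear messenger RNA. The libraries were made from poly(A)-selected RNA, so that only a part of the plastid RNA was caught, and an altered amount of a transcript and altered tailing or breakdown cannot be told apart.

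Shoots of Col-0 seedlings, 4 days after germination under continuous light, were sampled 8 h after transfer to medium that held an inhibitor of TOR, a kinase that ties growth to the supply of nutrients and energy. The groups were AZD8055 at 2 µM, KU63794 at 20 µM, TORIN1 at 10 µM and a mock treatment with the solvent DMSO, with 3 libraries each. Doses differed between compounds, so a difference between inhibitors is a difference between these treatments as applied. The protocol spells the second compound with its last digits in another order, and the spelling of the sample names is used here. All plants were of 1 wild-type accession, and the labels do not say whether replicates came from separate cultures, and p-values therefore cover no more than the spread among the libraries at hand. In pieces of whole shoot, fewer green cells and less plastid RNA per cell cannot be told apart.

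Libraries held 7706957 to 14696645 counts, and the limit that a count of 0 allows, which covers counting error alone, was 0.204 to 0.389 CPM. CPM are counts scaled to a common library total. Levels are given after TMM adjustment, while this limit was taken on unadjusted library totals. The 5 green shoot marker genes, Rubisco and light-harvesting genes among them, summed to 32001 to 48550 CPM with AZD8055, 32545 to 34293 with KU63794, 34217 to 50418 with TORIN1 and 36636 to 38866 in mock. RBCS1A alone, at 20780 to 35542 CPM, made up most of each sum. Against mock, CAB1 fell with TORIN1 (log2 fold change −0.81, edgeR adjusted p = 0.000779). LHCB2.1 (0.72, adjusted p = 0.0127) and LHCA1 (0.49, adjusted p = 0.0453) rose with AZD8055. No other of these markers and inhibitors gave an adjusted p below 0.05. Sums of 5 root hair markers were 1.47 to 5.93 CPM with AZD8055, 1.91 to 3.52 with KU63794, 1.13 to 2.43 with TORIN1 and 4.43 to 10.9 in mock. Among them RHS19, at low levels, fell with KU63794 (log2 fold change −2.27, edgeR adjusted p = 0.00805) and TORIN1 (−2.54, adjusted p = 0.00745). It was not called with AZD8055. AT4G26010 was called with no inhibitor, and SHV2, EXPA7 and EXPA18 were too low to be tested. No marker of either list was at 0 in all libraries.

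Plastid transcripts made up a small share of each library. The share was 0.299%, 0.367% and 0.327% of counts in AZD8055 replicates 1 to 3, 0.362%, 0.248% and 0.290% with KU63794, 0.252%, 0.274% and 0.230% with TORIN1 and 0.325%, 0.288% and 0.302% in mock. The TORIN1 libraries all lay below all mock libraries, while AZD8055 and KU63794 libraries lay on both sides of mock. This separation was lost with TMM-adjusted library totals, the scaling of the levels below, where TORIN1 replicate 2, at 0.289%, passed mock replicate 2, at 0.288%. Means were 0.331% ± 0.0346 with AZD8055, 0.300% ± 0.0576 with KU63794, 0.252% ± 0.0221 with TORIN1 and 0.305% ± 0.0189 in mock (SD, n = 3 each).

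The difference of the TORIN1 mean from mock was −0.0527 percentage points, or 0.827 of the mock share, with p = 0.1 in a two-sided exact permutation test. That is the smallest p that 3 libraries against 3 allow. With TMM-adjusted totals the difference was −0.0384 percentage points (exact permutation p = 0.2). The AZD8055 mean differed from mock by 0.0264 percentage points (exact permutation p = 0.4). The KU63794 mean differed by −0.00483 percentage points (exact permutation p = 0.9), and the sign of this difference turned when mock replicate 1 (0.00530), KU63794 replicate 2 (0.0212) or KU63794 replicate 3 (9.28e-05) was left out. A threshold of 0.05 cannot be reached with this number of libraries.

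**Figure D1:**
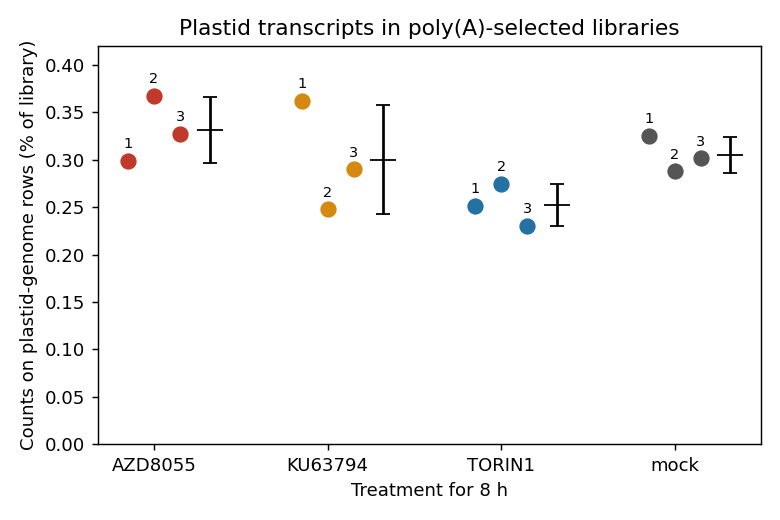
Share of each library's counts on plastid-genome genes, in percent, by treatment. Points are libraries with their replicate number, and the cross and bar are the mean and SD of 3 libraries. The 3 TORIN1 points, 0.230% to 0.274%, lie below the 3 mock points, 0.288% to 0.325%, on these unadjusted totals, and the other inhibitors straddle mock.

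A few members took most of the plastid counts. ATCG00480 alone took 31.7% of them over all libraries, between 23.0% and 45.6% in single libraries. The first 5 members together took 57.7% and the first 10 took 72.6%. After ATCG00480, the members with the most counts were ATCG00390 with 8.94%, ATCG01130 with 6.59%, ATCG00010 with 6.28% and ATCG01010 with 4.15% of plastid counts. These are shares of counts and not levels per length of transcript, since the gene lengths used for counting are not paired with these identifiers here.

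The plastid genome carries a pair of large inverted repeats, and reads from identical copies cannot be assigned to 1 of them. Among members with at least 10 counts, 12 pairs had counts that differed by at most 1 in every library. Of these, 4 pairs were tested: ATCG00840 with ATCG01300, ATCG00860 with ATCG01280, ATCG00900 with ATCG01240 and ATCG00950 with ATCG01180. ATCG00920 and ATCG01210, also tested, had counts that differed by at most 3 in every library, with sums of 1724 and 1731. Members of these 5 pairs are not separate measurements, which leaves at most 84 among the 89 tested. Copies with unequal counts could not be paired, since the identifiers carry no gene names here. None of the members called in the fit of all libraries belonged to such a pair.

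Replicates of 2 groups differed more among themselves in plastid transcripts than the mock replicates did. Over the 89 tested members, the median absolute difference in log2(CPM + 1) was 0.55 between AZD8055 replicates 1 and 2 and 0.47 between replicates 1 and 3, but 0.21 between replicates 2 and 3. It was 0.44 between KU63794 replicates 1 and 2, 0.30 between 2 and 3 and 0.25 between 1 and 3. TORIN1 pairs lay at 0.15 to 0.24 and mock pairs at 0.19 to 0.22. Over all 17933 tested genes, pairs within a group lay at 0.14 to 0.25. AZD8055 replicate 1 differed more than 2-fold from replicate 2 in 22 members, and KU63794 replicate 2 from replicate 1 in 14, while mock pairs differed that far in 0 to 3 members.

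Single members show how these libraries stood apart. ATCG01020 was at 5.64 CPM in AZD8055 replicate 1, against 55.6 and 46.1 CPM in replicates 2 and 3 and 32.8 to 36.2 CPM in mock. ATCG00390 was at 115 CPM in AZD8055 replicate 1 and at 311 and 282 CPM in replicates 2 and 3, against 262 to 298 CPM in mock. ATCG00950 went the other way. It was at 144 CPM in AZD8055 replicate 1 and 135 CPM in KU63794 replicate 2, against 73.5, 58.0 and 45.6 CPM in mock replicates 1 to 3.

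Transcripts of seed storage and oil-body proteins were uneven across the same libraries. Their 5 genes summed to 154 CPM in AZD8055 replicate 1, 41.8 in replicate 2 and 0 in replicate 3. The sums were 1.02, 192 and 117 CPM in KU63794 replicates 1 to 3, 167, 2.27 and 0.915 CPM with TORIN1 and 37.7, 48.0 and 63.9 CPM in mock. High sums were thus seen in AZD8055 replicate 1 and KU63794 replicate 2, and also in KU63794 replicate 3 and TORIN1 replicate 1, whose plastid members lay nearer to their groups. Their part in the spread of plastid transcripts was not tested.

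**Figure D2:**
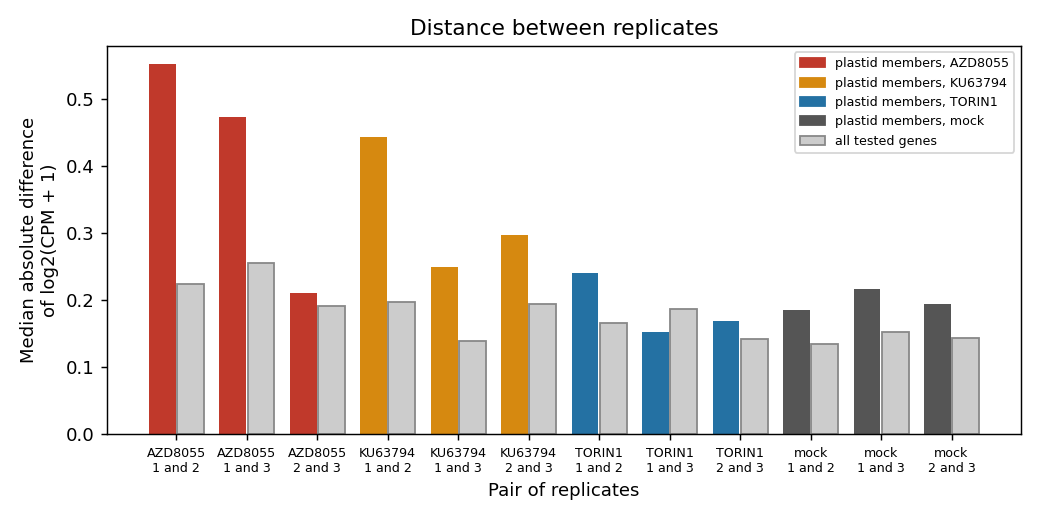
Median absolute difference in log2(CPM + 1) between replicates of a group, for each pair of replicates (horizontal axis), over the 89 tested plastid members (coloured bars) and over all 17933 tested genes (grey bars). The AZD8055 pairs with replicate 1 (0.55 and 0.47) and the KU63794 pair 1 and 2 (0.44) are the tallest, while mock pairs stay at 0.19 to 0.22.

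Against mock, few plastid members changed with any inhibitor in the fit of all 12 libraries. With AZD8055, 4 of the 89 tested members rose and 1 fell at an adjusted p below 0.05 (edgeR quasi-likelihood test, Benjamini-Hochberg adjustment over all 17933 genes), or 5.62% of members, while 30.5% of all genes tested were called (14.4% higher, 16.1% lower). With KU63794, 1 rose and 5 fell, or 6.74% of members against 25.4% of all genes (11.1% higher, 14.3% lower). With TORIN1, none rose, in edgeR or in DESeq2, and 2 fell, or 2.25% of members against 20.2% of all genes (9.87% higher, 10.3% lower). The TORIN1 count moved to 16 of 88 members or 18 of 81 when libraries of the other inhibitors left the fit, as described with that inhibitor. At an unadjusted p below 0.05 there were 8 members with AZD8055 (8.99%, against 40.5% of all genes), 12 with KU63794 (13.5%, against 36.2%) and 10 with TORIN1 (11.2%, against 32.7%). The 3 comparisons share their mock libraries.

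Most fold changes were small and many were poorly resolved. The median log2 fold change of the members was −0.12 with AZD8055, −0.19 with KU63794 and −0.25 with TORIN1, while the median of all genes was 0.00, 0.01 and −0.01 in the same order. With TORIN1, 12 members had a positive and 77 a negative log2 fold change. The counts were 41 positive and 48 negative with AZD8055, and 34 positive and 55 negative with KU63794. The median standard error (SE) of a member's log2 fold change was 0.31 with AZD8055, 0.30 with KU63794 and 0.31 with TORIN1, against 0.17 over all genes in each comparison. The 95% interval lay within 2-fold in either direction for 44 members with AZD8055, 47 with KU63794 and 48 with TORIN1. For the other members the interval reached a 2-fold change.

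The same members can be counted by whether the libraries of the groups overlap. All 3 AZD8055 libraries lay above all mock libraries in 8 members and below in 7, so 15 of 89 did not overlap, while 43.5% of all genes did not. With KU63794, 2 members lay above and 15 below, while 44.0% of all genes did not overlap. With TORIN1, 3 members lay above and 25 below, so 28 of 89 did not overlap, while 42.2% of all genes did not. These shares of all genes cover both directions together. A share by direction was not computed, so the split of the members has no background beside it.

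**Figure D3:**
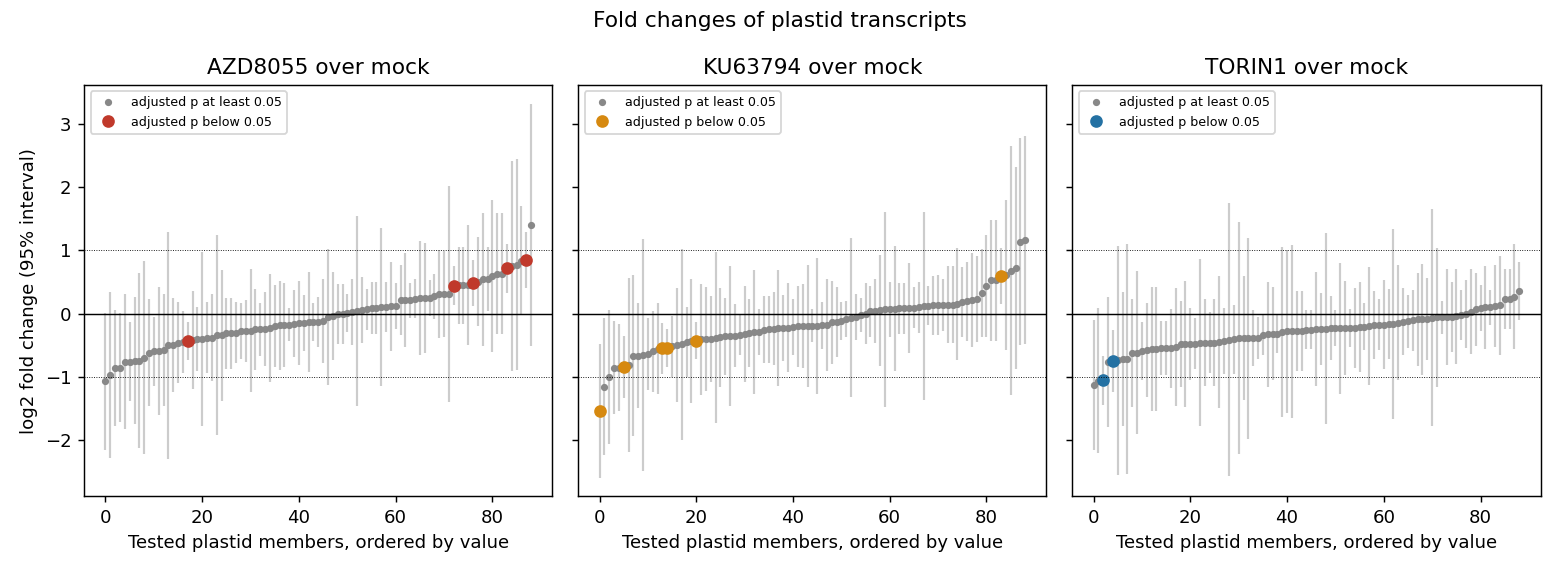
Log2 fold change of each of the 89 tested plastid members over mock, ordered by value within each panel, for AZD8055, KU63794 and TORIN1. Vertical lines are 95% intervals, dotted lines mark 2-fold and large coloured points are members with an adjusted p below 0.05: 5, 6 and 2 of them. Most intervals cross 0, and in the TORIN1 panel 77 of 89 points lie below it.

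With AZD8055, the members that rose were ATCG00670, ATCG00420, ATCG00480 and ATCG00280, and ATCG00380 fell. ATCG00670 is the plastid-encoded subunit CLP P, a proteolytic subunit of the Clp protease of the stroma. It was at 7.11, 4.94 and 7.57 CPM in AZD8055 replicates 1 to 3, 5.55, 6.44 and 4.65 CPM with KU63794, 4.67, 4.53 and 4.81 CPM with TORIN1 and 3.29, 4.28 and 3.39 CPM in mock. The libraries of all 3 inhibitors lay above all mock libraries. The log2 fold change was 0.84 with AZD8055 (SE 0.21, adjusted p = 0.00635), 0.60 with KU63794 (SE 0.21, adjusted p = 0.0444) and 0.36 with TORIN1 (SE 0.21, adjusted p = 0.268). The AZD8055 call held when any 1 of the 6 libraries was left out, and was lost with the plastid total as library size. The KU63794 call was lost in 6 of the other settings, and without mock replicate 1, mock replicate 3, KU63794 replicate 1 or KU63794 replicate 2, with an adjusted p of up to 0.160.

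ATCG00420 was at 25.2, 18.0 and 16.2 CPM in AZD8055 replicates 1 to 3, 14.8, 10.6 and 11.6 CPM with KU63794, 9.82, 12.9 and 9.46 CPM with TORIN1 and 11.02, 12.2 and 13.0 CPM in mock. The AZD8055 libraries lay above all mock libraries, and those of the other inhibitors overlapped mock. Its log2 fold change was 0.72 with AZD8055 (SE 0.18, adjusted p = 0.0081), and the call held when any 1 of the 6 libraries was left out. It was 0.04 with KU63794 (adjusted p = 0.916) and −0.17 with TORIN1 (adjusted p = 0.582).

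ATCG00480, which takes the most plastid counts, was at 1416, 1142 and 1267 CPM in AZD8055 replicates 1 to 3, 968, 548 and 882 CPM with KU63794, 697, 896 and 776 CPM with TORIN1 and 913, 913 and 899 CPM in mock. AZD8055 libraries lay above mock and TORIN1 libraries below it, while KU63794 libraries overlapped mock. Its log2 fold change was 0.49 with AZD8055 (SE 0.17, adjusted p = 0.0433), −0.18 with KU63794 (adjusted p = 0.482) and −0.20 with TORIN1 (adjusted p = 0.458). The AZD8055 call was lost in 5 of 6 fits without 1 library, all but the one without AZD8055 replicate 2, with an adjusted p of up to 0.133. It was also lost with library totals (adjusted p = 0.0529) and with the plastid total as library size (adjusted p = 0.154).

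ATCG00280 was at 39.4, 42.8 and 51.8 CPM in AZD8055 replicates 1 to 3, 27.7, 20.7 and 29.6 CPM with KU63794, 26.5, 29.6 and 22.0 CPM with TORIN1 and 34.5, 30.7 and 33.2 CPM in mock. The AZD8055 libraries were all above mock, and the KU63794 and TORIN1 libraries were all below it. Fold changes on the log2 scale were 0.44 with AZD8055 (SE 0.15, adjusted p = 0.0321), −0.34 with KU63794 (adjusted p = 0.113) and −0.34 with TORIN1 (adjusted p = 0.126). The AZD8055 call was lost without any 1 of the mock libraries or without AZD8055 replicate 3. It was also lost with library totals (edgeR, adjusted p = 0.0647) and with the plastid total as library size (adjusted p = 0.214).

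ATCG00380 was lower with AZD8055 and with KU63794. It was at 23.2, 31.7 and 26.2 CPM in AZD8055 replicates 1 to 3, 29.2, 22.2 and 23.4 CPM with KU63794, 29.8, 35.9 and 28.1 CPM with TORIN1 and 39.4, 33.2 and 36.2 CPM in mock. AZD8055 and KU63794 libraries lay below all mock libraries, and TORIN1 libraries overlapped them. The log2 fold change was −0.43 with AZD8055 (SE 0.14, adjusted p = 0.0324), −0.54 with KU63794 (SE 0.14, adjusted p = 0.0105) and −0.22 with TORIN1 (adjusted p = 0.305). The KU63794 call was lost without mock replicate 1 (adjusted p = 0.0526), and the AZD8055 call without mock replicate 1 or 3 or AZD8055 replicate 1 or 3. The AZD8055 call was also lost with library totals and without AZD8055 replicate 1 and KU63794 replicate 2 together. The KU63794 call was also lost with the plastid total as library size (edgeR, adjusted p = 0.0525).

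The balance of calls with AZD8055 depended on the scaling. With the plastid total of each library as its size, 1 member, ATCG00420, rose and 4 fell relative to the plastid total, while 20.5% of all genes were called and the median of all genes moved to −0.14. With library totals and no TMM factor, ATCG00670 and ATCG00420 rose and none fell, while 27.6% of all genes were called. Without AZD8055 replicate 1 and KU63794 replicate 2 together, a choice made after their spread was seen, 8 of 88 members rose and 1, ATCG00020, fell, or 10.2% against 31.2% of all genes. The 8 include the pair ATCG00840 and ATCG01300, so that 7 of 83 rose with pairs of near-equal counts counted once.

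With KU63794, besides ATCG00670 and ATCG00380, 4 members fell. ATCG00360 was at 7.43, 3.93 and 6.14 CPM in KU63794 replicates 1 to 3 and 12.4, 10.3 and 8.47 CPM in mock, without overlap. Its log2 fold change was −0.85 (SE 0.23, adjusted p = 0.0138), and the call was lost without mock replicate 1 or KU63794 replicate 2. ATCG00260, near the lowest measured level, had 5, 6 and 4 counts in KU63794 replicates 1 to 3 and 18, 8 and 12 in mock, with a log2 fold change of −1.53 (SE 0.50, adjusted p = 0.0341).

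ATCG00680 was at 7.11, 7.23 and 7.63 CPM with KU63794 and 10.7, 8.75 and 9.91 CPM in mock, also without overlap. Its log2 fold change was −0.42 (SE 0.14, adjusted p = 0.0369). ATCG01100 was at 4.53, 5.42 and 4.89 CPM with KU63794 and 7.05, 5.71 and 9.13 CPM in mock, a log2 fold change of −0.55 (SE 0.19, adjusted p = 0.045). The calls of ATCG00260, ATCG00680 and ATCG01100 were each lost in 5 of 6 fits without 1 library, all but the one without mock replicate 2. They were also lost in DESeq2, with library totals and with the plastid total as library size. The same held without the low-count filter and with the replicate number as a block. The call of ATCG01100 was lost with RLE factors as well. Without mock replicate 1 no KU63794 call remained, in either direction, while 19% of all genes were called. Without KU63794 replicate 2, 1 member other than ATCG00670 rose and 1 fell, while 20.2% of all genes were called. Without KU63794 replicate 2 and AZD8055 replicate 1 together, 1 rose and 3 fell of 88 (4.55% against 24.7% of all genes). The split of 1 higher and 5 lower members became 1 and 2 with library totals (24.4% of all genes called) and 0 and 1 with the plastid total as library size (16.3%).

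With TORIN1, the members that fell were ATCG00750 and ATCG01110. ATCG00750 is ribosomal protein S11, a protein of the small subunit of the plastid ribosome. It was at 13.4, 12.6 and 13.2 CPM in AZD8055 replicates 1 to 3, 9.14, 8.01 and 9.54 CPM with KU63794, 4.67, 7.02 and 4.20 CPM with TORIN1 and 11.02, 9.51 and 11.99 CPM in mock. TORIN1 libraries lay below those of every other group, and AZD8055 libraries above them. The log2 fold change was −1.05 with TORIN1 (SE 0.18, adjusted p = 0.00121), 0.28 with AZD8055 (adjusted p = 0.240) and −0.28 with KU63794 (adjusted p = 0.254). The TORIN1 call held without any 1 of the 6 libraries, with an adjusted p of at most 0.00963, and under every other setting tried.

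ATCG01110 was at 4.28, 3.40 and 3.36 CPM in TORIN1 replicates 1 to 3 and 7.39, 5.80 and 5.08 CPM in mock, without overlap. Its log2 fold change was −0.74 (SE 0.23, adjusted p = 0.0348), and the call was lost in 4 of 6 fits without 1 library, those without mock replicate 1 or 2 or TORIN1 replicate 2 or 3. It was also lost with the plastid total as library size (edgeR, adjusted p = 0.155). In the reference annotation of build TAIR10.1, the S11 gene lies between rpoA and rpl36 and the CLP P gene between rps12 and psbB.

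**Figure D4:**
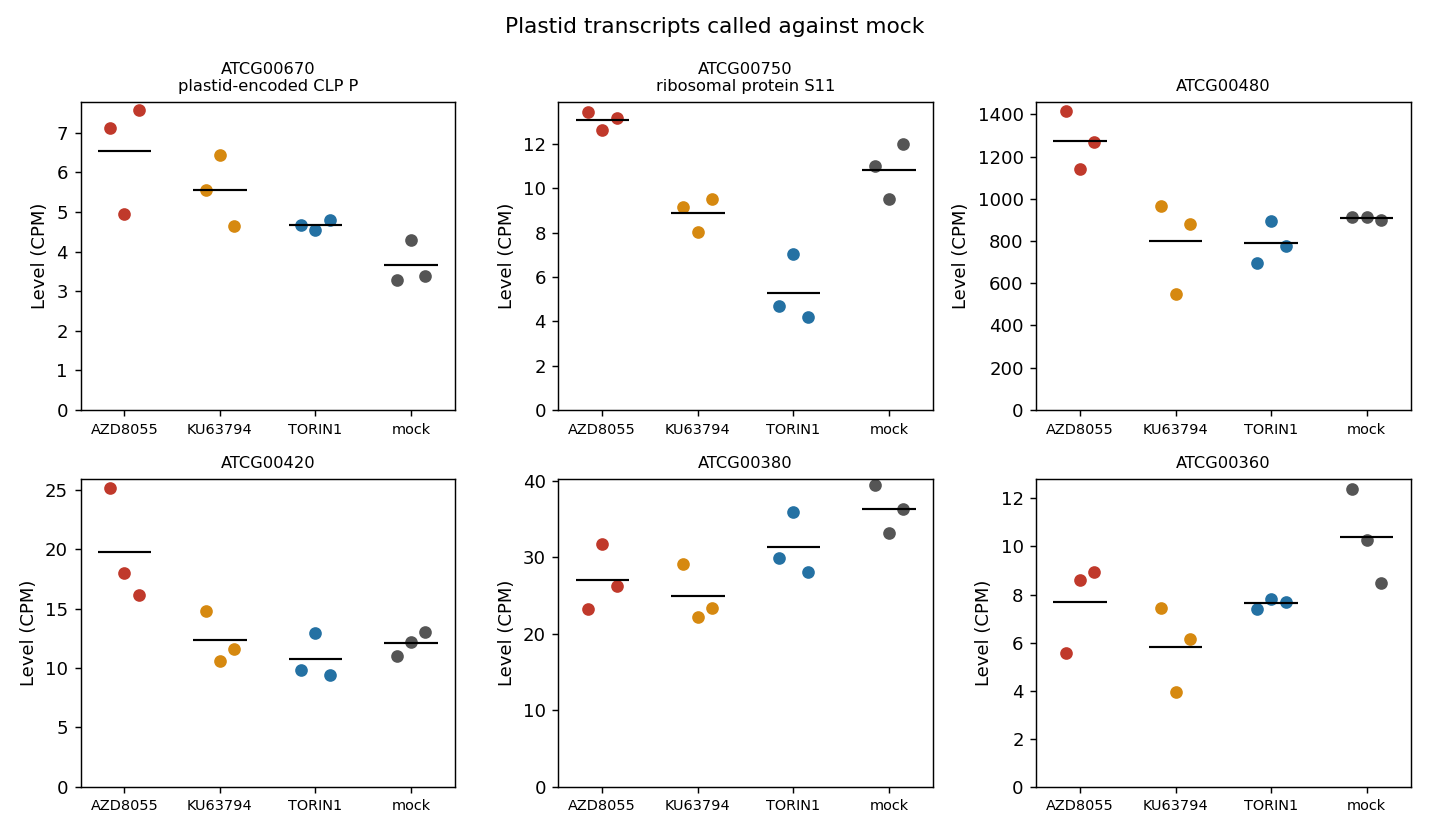
Level in CPM of 6 plastid members called against mock, in each library (points, 3 per group) with the group mean (line). Each panel has its own axis from 0. ATCG00670 is above mock in all inhibitor libraries, ATCG00750 is lowest in the 3 TORIN1 libraries and ATCG00480 is highest in the 3 AZD8055 libraries.

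How many members were called with TORIN1 depended on which libraries entered the fit, and all groups in a fit share 1 estimate of each gene's spread. The median SE of the members was 0.31 over all 12 libraries, 0.20 without AZD8055 replicate 1 and KU63794 replicate 2 and 0.18 with TORIN1 and mock alone, while the median log2 fold change was −0.25 in each. With AZD8055 replicate 1 and KU63794 replicate 2 left out, 16 of 88 members fell with TORIN1 and none rose. That is 18.2% of members, while 26.1% of all genes were called and 13.2% were called lower. Counting each pair of near-equal counts once, 14 of 83 fell, or 16.9%. With TORIN1 and mock libraries alone in the fit, 18 of 81 members fell and none rose, or 22.2%, while 28.8% of all genes were called and 14.7% were called lower. Counting pairs once, 16 of 76 fell, or 21.1%. These fits shared 15 members, and both ATCG00750 and ATCG01110 were called in each.

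Among members called with TORIN1 only in those fits, ATCG00270 was at 5.54, 6.57 and 4.81 CPM in TORIN1 replicates 1 to 3, against 12.2, 11.7 and 10.95 CPM in mock. It was at 2.43 CPM in AZD8055 replicate 1, against 15.5 and 16.0 CPM in replicates 2 and 3. The log2 fold change with TORIN1 was −1.06 in each fit, with an adjusted p of 0.186 over all 12 libraries, 0.000195 without the 2 libraries and 0.000293 in the fit of TORIN1 and mock alone. ATCG00470 was at 62.0, 69.3 and 67.4 CPM with TORIN1, against 88.6, 90.6 and 94.0 CPM in mock, a log2 fold change of −0.46. Its adjusted p was 0.347 over all libraries, 0.00566 without the 2 libraries and 0.000582 in the fit of TORIN1 and mock alone. ATCG00800 was at 32.2, 31.0 and 29.8 CPM with TORIN1, against 43.9, 39.5 and 45.5 CPM in mock, a log2 fold change of −0.47 with adjusted p values of 0.101, 0.0472 and 0.00152 in the same fits. These members were chosen after their values were seen.

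The other members with many counts did not pass the test with any inhibitor in the fit of all libraries. ATCG00390 was at 285, 315 and 315 CPM with TORIN1 and 298, 262 and 281 CPM in mock (log2 fold change 0.12, adjusted p = 0.821). ATCG01130 was at 157, 171 and 162 CPM with TORIN1 and 216, 197 and 227 CPM in mock, without overlap (log2 fold change −0.38, adjusted p = 0.215). ATCG00790 was at 94.2, 101 and 81.3 CPM with TORIN1 and 126, 116 and 119 CPM in mock, again without overlap (log2 fold change −0.38, adjusted p = 0.0965). Both of these were called lower in the fit of TORIN1 and mock alone. For ATCG00010 the log2 fold change was −0.27 with AZD8055, 0.00 with KU63794 and −0.10 with TORIN1. For ATCG01010 it was −0.13, −0.37 and 0.13 in the same order. ATCG00830 was at 97.6, 106 and 111 CPM with AZD8055 and 94.7, 85.7 and 84.1 CPM in mock, which did not overlap (log2 fold change 0.25, adjusted p = 0.175).

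Of the 6 members named in the reference's notes, 4 were not called with any inhibitor. ATCG00430 is noted as photosystem II reaction center protein G only through a nuclear gene of similar sequence, and its role was not checked here. ATCG00430 was at 54.6, 30.4 and 36.8 CPM with AZD8055, 28.4, 32.4 and 24.9 CPM with KU63794, 14.5, 22.8 and 24.3 CPM with TORIN1 and 33.8, 24.9 and 23.9 CPM in mock. Every inhibitor overlapped mock, with log2 fold changes of 0.55 with AZD8055 (adjusted p = 0.0937), 0.04 with KU63794 and −0.43 with TORIN1. ATCG00530, noted as related to the CemA proton extrusion protein, had log2 fold changes of −0.75 with AZD8055 (adjusted p = 0.0668), −0.35 with KU63794 and −0.54 with TORIN1. ATCG01310, ribosomal protein L2 of the large subunit, had log2 fold changes of 0.21 with AZD8055, −0.02 with KU63794 and 0.10 with TORIN1, with an SE of 0.13 each. ATCG00660, ribosomal protein L20, was measured with 154 counts in all and had log2 fold changes of −0.23, 0.44 and 0.27 in the same order, with an SE of 0.38 to 0.40.

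Set against each other, the inhibitors differed in few members. AZD8055 over TORIN1 gave 3 members called, all higher with AZD8055, or 3.37% of members, while 1.80% of all genes were called and 0.496% were called higher. These were ATCG00750 (log2 difference 1.32, SE 0.18, adjusted p = 0.00638), ATCG00420 (0.89, SE 0.18, adjusted p = 0.0334) and ATCG00280 (0.78, SE 0.15, adjusted p = 0.0249). Their AZD8055 libraries all lay above their TORIN1 libraries, by the values given above. KU63794 over TORIN1 gave 1 member, ATCG00750 (0.77, SE 0.18, adjusted p = 0.0413), or 1.12% of members, while 2.82% of all genes were called and 0.602% were called higher. The ATCG00750 difference of AZD8055 from TORIN1 held without any 1 of the 6 libraries, with an adjusted p of up to 0.0465. The call of ATCG00280 was lost in 3 and that of ATCG00420 in 4 such fits, and the KU63794 call of ATCG00750 in all 6, with an adjusted p of up to 0.195.

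AZD8055 over KU63794 gave no called member in edgeR and 1 in DESeq2, while 0.00558% of all genes, a single gene, were called in edgeR and 0.083% in DESeq2. At an unadjusted p below 0.05 there were 8 members, or 8.99%, against 8.35% of all genes. The 95% interval of this difference lay within 2-fold for 43 of 89 members, and for the others it reached a 2-fold change. Some of the latter intervals excluded 0. For ATCG00280 the log2 difference was 0.78 (95% interval 0.47 to 1.09), though it was not called (edgeR, adjusted p = 0.334). With the plastid total as library size, AZD8055 over TORIN1 gave 1 higher and 8 lower members in place of 3 higher. With that scaling the median log2 fold change of all genes in this comparison was −0.35 and 18.3% of all genes were called, while the median of the members was −0.19, so these directions are relative to the plastid total. Without AZD8055 replicate 1 and KU63794 replicate 2, 13 members were higher with AZD8055 than with TORIN1 (14.8%, or 12 of 83 with pairs counted once, against 3.58% of all genes called and 0.722% called higher) and 4 were higher with KU63794 than with TORIN1 (4.55%, against 1.10% of all genes called and 0.250% called higher).

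Nuclear genes for the transcription of the plastid genome were among those that changed. Their counts stand beside 30.5%, 25.4% and 20.2% of all genes called with AZD8055, KU63794 and TORIN1. Of 8 sigma factors and phage-type polymerases, 1 rose and 3 fell with AZD8055, 1 rose and 3 fell with KU63794, and 1 rose and 2 fell with TORIN1. SCA3, the phage-type polymerase of plastids, was at 21.7, 24.2 and 18.7 CPM with AZD8055, 26.3, 19.3 and 27.5 CPM with KU63794, 34.9, 36.0 and 34.1 CPM with TORIN1 and 61.4, 73.4 and 63.0 CPM in mock. No inhibitor library reached the lowest mock library. The log2 fold change was −1.62 with AZD8055 (adjusted p = 2.46e-06), −1.44 with KU63794 (adjusted p = 5.87e-06) and −0.91 with TORIN1 (adjusted p = 0.000366).

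AT5G15700, the phage-type polymerase found in both mitochondria and plastids, fell with each inhibitor, with log2 fold changes of −0.81 (AZD8055), −0.75 (KU63794) and −0.51 (TORIN1). Among sigma factors, SIGF fell with AZD8055 (−0.41) and KU63794 (−0.44) and was at −0.15 with TORIN1 (adjusted p = 0.353). SIGE rose with AZD8055 (0.54) and KU63794 (0.64) and was at 0.19 with TORIN1 (adjusted p = 0.478). SIG4 rose with TORIN1 (0.47) and was at 0.28 with AZD8055 (adjusted p = 0.0629) and 0.30 with KU63794 (adjusted p = 0.0508). SIGA, SIG2 and SIGC were called with no inhibitor.

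Of 14 proteins associated with the plastid-encoded polymerase, 11 were lower with AZD8055, 12 with KU63794 and 9 with TORIN1 at an adjusted p below 0.05, and none was higher. Their median log2 fold change was −0.97 with AZD8055, −1.12 with KU63794 and −0.53 with TORIN1. The fructokinase-like protein FLN2 was at 10.6, 13.5 and 9.80 CPM with AZD8055, 12.9, 9.97 and 12.03 CPM with KU63794, 15.8, 19.4 and 20.0 CPM with TORIN1 and 30.5, 35.2 and 34.7 CPM in mock. The groups of each inhibitor and mock did not overlap, and the log2 fold change was −1.57 with AZD8055, −1.52 with KU63794 and −0.86 with TORIN1. PDE312 fell with log2 fold changes of −1.51, −1.22 and −0.73 in the same order. PTAC12, with −1.46, −1.34 and −0.89, and PTAC3, with −0.99, −1.09 and −0.64, fell as well. PTAC proteins were first found in plastid chromosome preparations. PTAC7 and the superoxide dismutase FSD2 were called with no inhibitor.

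Of 25 nuclear genes for processing, editing and stability of plastid RNA, 2 rose and 17 fell with AZD8055, 16 fell with KU63794 and 9 fell with TORIN1. Their median log2 fold change was −0.52 with AZD8055, −0.69 with KU63794 and −0.25 with TORIN1. The RNA-binding protein CP29 was at 258, 238 and 174 CPM with AZD8055, 275, 222 and 230 CPM with KU63794, 326, 370 and 394 CPM with TORIN1 and 675, 886 and 813 CPM in mock. Every inhibitor library was below every mock library, with log2 fold changes of −1.83, −1.71 and −1.12 in the same order. CP33, another RNA-binding protein, fell with log2 fold changes of −1.60, −1.63 and −0.81, and the RNA helicase gene emb1138 with −1.11, −1.17 and −0.60. RIF10, the plastid polynucleotide phosphorylase, which trims RNA ends and adds tails, fell with AZD8055 (−0.74) and KU63794 (−0.73) and was at −0.29 with TORIN1 (adjusted p = 0.0866). The genes that rose with AZD8055 were CSP41A (0.50) and HCF107 (0.28). These, RIF10, PTAC7 and FSD2 were named after their values were seen.

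Nuclear genes for the Rubisco small subunit, whose partner, the large subunit, is plastid-encoded, gave a mixed picture. Of 4 genes, 1 rose with AZD8055, 1 fell with KU63794 and 1 rose with TORIN1. RBCS2B had log2 fold changes of 0.65 with AZD8055 (adjusted p = 0.0164), 0.18 with KU63794 (adjusted p = 0.534) and 0.72 with TORIN1 (adjusted p = 0.0140). RBCS1B fell with KU63794 (log2 fold change −0.90, adjusted p = 0.00318). The nuclear lists were chosen with earlier results of these data known, and their counts are descriptions.

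**Figure D5:**
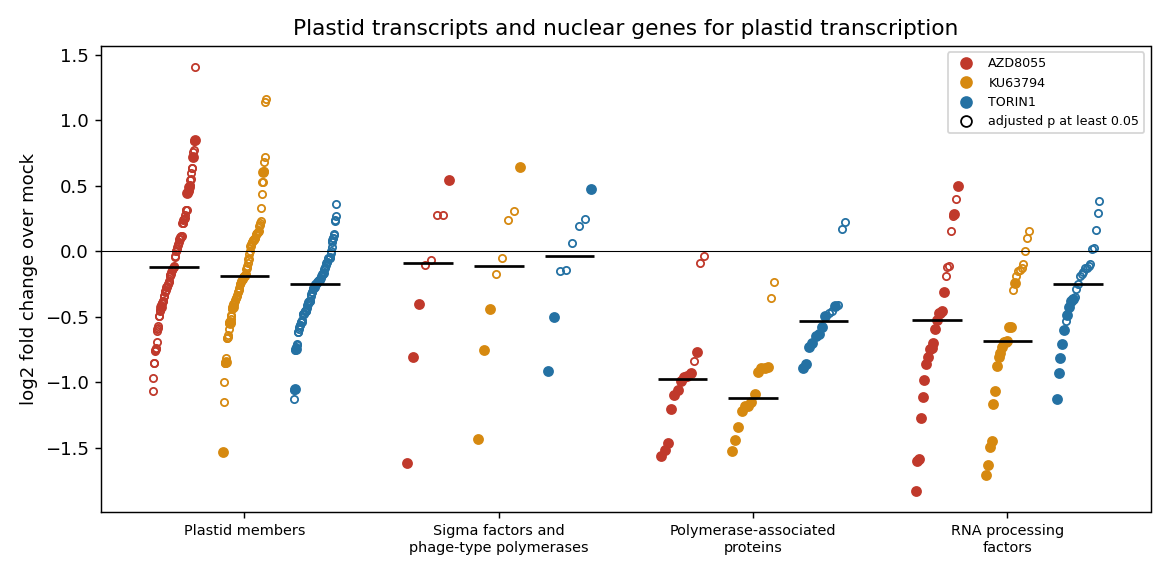
Log2 fold change over mock of the 89 tested plastid members and of nuclear genes for sigma factors and phage-type polymerases (8), polymerase-associated proteins (14) and RNA processing factors (25), for AZD8055, KU63794 and TORIN1. Filled points have an adjusted p below 0.05, open points do not, and lines are medians. The medians of the plastid members are −0.12, −0.19 and −0.25, against −0.97, −1.12 and −0.53 for the polymerase-associated proteins.

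The mitochondrial genome is the other organelle genome in the counts. Of its 146 genes, 31 had at least 10 counts and 4 were tested. Its share of counts was 0.0249% ± 0.00164 with AZD8055, 0.0273% ± 0.00385 with KU63794, 0.0199% ± 0.00464 with TORIN1 and 0.0256% ± 0.00564 in mock (SD, n = 3 each). None of the 4 was called with AZD8055 or KU63794 by edgeR, also at an unadjusted p below 0.05. With TORIN1, 2 of 4 fell, while 20.2% of all genes were called and 10.3% were called lower. Set against TORIN1, 2 of 4 were higher with AZD8055 and 2 of 4 with KU63794, while 0.496% and 0.602% of all genes were called higher. So few tested genes allow no statement about the mitochondrial genome.

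The authors' deposited tables, which list genes with an adjusted p below 0.05, hold few plastid genes. Their table for AZD8055 lists 5 of 5308 genes with a plastid identifier, the same 5 as called here. The authors' deposited table for KU63794 lists 2 of 4558, ATCG00360 and ATCG00380. The authors' deposited table for TORIN1 lists 2 of 3696, ATCG00750 and ATCG01110. In the authors' deposited tables the log2 fold change runs as mock over inhibitor, for ATCG00750 0.93 with an adjusted p of 1.6e-05, so that a positive value there means lower with the inhibitor.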

How the data were processed

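The authors' deposited gene-level counts of 12 poly(A)-selected shoot libraries were used as they stand. The submitters' processing notes name the genome build TAIR10 and the tools StringTie (1.3.3) and DESeq2 (1.18.1). No aligner, strand setting or treatment of shared reads was given in the sources used here. Copies of a repeated gene, overlapping genes and antisense genes may share counts. The authors' deposited tables give a log2 fold change of mock over inhibitor and an adjusted p-value for genes below 0.05.

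The quasi-likelihood test of edgeR 4.0.16 (R 4.3.3) was applied with TMM factors, the default low-count filter and 1 fit of all 12 libraries. P-values were two-sided, adjusted by Benjamini-Hochberg over 17933 genes, and a member was called at an adjusted p below 0.05. SEs are those implied by the F statistic. Shares of counts were compared by an exact permutation test over libraries. Totals were 7706957 to 14696645 counts per library, of which 23246 to 46218 fell on plastid genes. On simulated counts for AZD8055 against mock (17664 genes), the fit recovered 23.4% of genes changed 1.5-fold, 83.1% changed 2-fold and 98.5% changed 4-fold, with 3 unchanged genes called. Every simulated gene had the same spread, and the changed genes were drawn from all genes kept by the filter. These rates therefore do not carry over to the plastid members, whose median SE with AZD8055 was 0.31, against 0.17 over all genes.

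The members and gene lists were chosen with earlier results of these data known. Genes to be named were those called against mock or between inhibitors, the 10 members with the highest mean CPM, a few set by symbol and up to 4 per nuclear list. A grouping of members by gene symbol and the naming by symbol could not be applied, since the reference table (TAIR10.1) holds none of the 133 identifiers and its notes name 6. One listed nuclear RNA factor with no entry in that table is counted in its list and not named. Alternatives were DESeq2 1.42.0, other scalings, no filter, 2 groups per fit, a replicate block, leaving out libraries and, for the share of counts, TMM-adjusted totals. Figures were drawn with matplotlib 3.10.9 in Python 3.11.15.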

Additional observations from a re-analysis of the deposited data

Results flagged for a closer look

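The inhibitors differed from each other in 3 plastid members by the test of the difference itself (edgeR, adjusted over all genes), at doses that differed between compounds. ATCG00750, ribosomal protein S11, was higher with AZD8055 than with TORIN1 by 1.32 on the log2 scale and higher with KU63794 than with TORIN1 by 0.77. All 3 AZD8055 and all 3 KU63794 libraries lay above all TORIN1 libraries. ATCG00420 was higher with AZD8055 than with TORIN1 by 0.89 and ATCG00280 by 0.78, with all 3 AZD8055 libraries above all TORIN1 libraries. With only the compared pair of groups in the fit, none of these 4 differences passed the test.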

How the results depend on the processing

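The counts of called plastid members moved with several choices. Values in brackets are shares of all genes called in the same comparison and setting. DESeq2 gave 0 higher and 2 lower of 85 members with KU63794 against mock (26.2%). It called 1 of 50 members between AZD8055 and KU63794 (0.083%) and 7 of 80 between AZD8055 and TORIN1 (3.35%). Between KU63794 and TORIN1 it called 3 of 54 (8.7%). Library totals without TMM gave 2 higher and 0 lower with AZD8055 (27.6%), 2 lower with KU63794 (24.4%) and 0 between KU63794 and TORIN1 (0.519%). With the plastid total as library size, 1 was higher and 4 lower with AZD8055 (20.5%). With the same scaling, 0 were higher and 1 lower with KU63794 (16.3%) and 1 was lower with TORIN1 (14.6%). It also gave 9 called between AZD8055 and TORIN1 (18.3%) and 0 between KU63794 and TORIN1 (1.69%). That scaling moved the median log2 fold change of all genes with AZD8055 to −0.14, KU63794 to 0.12 and TORIN1 to 0.19, beside −0.27, −0.10 and −0.07 for the members. No low-count filter gave 0 higher and 2 lower of 125 with KU63794 (17.8%). Fits of the compared groups alone gave 2 lower with AZD8055 (28.4%), 0 higher with KU63794 (29.1%) and 18 lower with TORIN1 (28.8%). They gave 0 between AZD8055 and TORIN1 (0.0647%) and 0 between KU63794 and TORIN1 (0.914%). Leaving out AZD8055 replicate 1 and KU63794 replicate 2 together was chosen after seeing the data. It gave 8 higher with AZD8055 (31.2%), 3 lower with KU63794 (24.7%) and 16 lower with TORIN1 (26.1%). It also gave 13 between AZD8055 and TORIN1 (3.58%) and 4 between KU63794 and TORIN1 (1.1%). The smaller set of samples enters these fits by construction, and otherwise the cause was not tested.

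Without 1 library in turn, AZD8055 gave 2 to 6 higher and 0 to 4 lower members, while 22.1% to 28.3% of all genes were called. KU63794 gave 0 to 1 higher and 0 to 5 lower (18% to 21.5% of all genes). TORIN1 gave 0 higher and 1 to 2 lower (12.1% to 17.2%). Between inhibitors, 1 to 4 were called for AZD8055 and TORIN1 (0.0768% to 2.41% of all genes). For KU63794 and TORIN1, 0 to 1 were called (0.011% to 5.1%), and for AZD8055 and KU63794 0 (at most 0.0165%). TMM-adjusted totals, also chosen after seeing the data, kept the sign of each difference in plastid share. On unadjusted totals with 1 library left out at a time, the difference in the plastid share of counts, KU63794 vs mock, ran from −0.0358 to 0.0212 percentage points. In the same way, the difference in the plastid share of counts, AZD8055 vs mock, ran from 0.00826 to 0.0427. For the plastid share of counts, TORIN1 vs mock, it ran from −0.0638 to −0.0418, so the AZD8055 and TORIN1 differences kept their sign. RLE factors and scaling from nuclear genes moved no count by more than 1.5 times.

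The replicate numbers did not pair the samples: 18 correlations of same-numbered deviations ran from −0.26 to 0.24, 5 of them over 0.1, and 5 of 12 libraries correlated best with their own number. With the replicate number as a block, 3 members were higher with AZD8055, ATCG00480 no longer among them, and 2 lower (30.3% of all genes called). With KU63794, 0 were higher and 2 lower in that fit (25.5%), and 0 were called between KU63794 and TORIN1 (2.55%). The paired sign-flip test of the plastid share, TORIN1 vs mock, gave an exact p of 0.25, the smallest that 3 pairs allow. Of the values of single named members under an alternative, 1024 kept their direction and side of the threshold. A call was lost in 99 and gained in 16, and no called value changed sign. The 1024 include values that were called in neither fit, and only called values could lose a call. The tally is therefore no measure of how often a call held, which is given with each member. An alternative on protein-coding members alone was not run, because the identifiers are not paired with gene classes here. Depth limits the 27 members with at least 10 counts that were too low to test.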
